A study of Danio rerio with 16 samples.

Results

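The subject here is the step between the lowest and the middle dose of perfluorobutanoic acid (PFBA) in zebrafish larvae. Transcript levels at 1 µg/L (n = 4 libraries) were set against those at 0.1 µg/L (n = 3 libraries), which is 7 of the 16 libraries sequenced. The libraries were taken by their dose label, and all 19092 genes that passed the filter on low counts were compared. PFBA is a short-chain perfluorinated carboxylic acid that persists in water. Larvae of the zebrafish (Danio rerio), 7 days old, had been exposed for 7 days to PFBA at 1 µg/L or at 0.1 µg/L, and whole larvae were frozen for RNA extraction. The other groups of the study, a control given dimethyl sulfoxide (DMSO, n = 4) and PFBA at 10 µg/L (n = 5), served here to estimate the spread between libraries and as context. The sources used here do not state strain, sex or how many larvae went into a library. The labels do not say whether libraries came from separate exposure tanks, so p-values measure the spread between these libraries, which may be in part technical. In RNA from whole larvae, fewer cells of a type and less RNA per cell cannot be told apart.

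Several gene systems named below are fast-moving in larval fish. The circadian clock runs as a loop in which Clock and Bmal (arntl) proteins switch on period, cryptochrome and nr1d genes, whose products in turn repress the loop, and in zebrafish light itself induces per2, cryptochromes and DNA photolyases. Immediate early genes such as fosab, egr4 and nr4a1 are transcribed within minutes of a stimulus without new protein synthesis. Enterocytes and hepatocytes carry brush border enzymes, lipoproteins and plasma proteins of the larva, which at this age is passing from yolk to feeding.

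The libraries at 1 µg/L held 10503631 to 12461311 reads and those at 0.1 µg/L held 10678812 to 13862232 reads, so depth was close between the groups. The 0.1 µg/L group was not uniform. Its libraries 1 and 2 had scaling factors by the trimmed mean of M values (TMM) of 0.58 and 0.74 and its library 3 one of 1.09, against 1.01 to 1.08 at 1 µg/L. Genes with at least 1 read numbered 21971 to 22151 at 1 µg/L, against 20118, 21183 and 22423 in libraries 1, 2 and 3 at 0.1 µg/L. On the first principal component of the 7 libraries, those at 1 µg/L lay between -62.5 and -18.9, and libraries 1, 2 and 3 at 0.1 µg/L lay at 150.7, 75.3 and -50.7. Values in each library at 0.1 µg/L, or fold changes without its libraries 1 and 2, are therefore given for the genes that the text turns on, and the remaining genes are given as means.

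Set one at a time against the mean of the 1 µg/L group, the 0.1 µg/L libraries differed in how many genes departed. Library 1 had 3323 genes at least 2-fold above that mean (17.4% of genes tested) and 4836 at least 2-fold below it (25.3%). Library 2 had 2007 above (10.5%) and 3288 below (17.2%), and library 3 had 1222 above (6.4%) and 406 below (2.13%). A library at 1 µg/L set against the mean of the other 3 had 2.16% to 6.08% of genes above and 3.93% to 5.7% below, so library 3 departed about as much as the 1 µg/L libraries did from one another and libraries 1 and 2 departed more. Across genes, the Pearson correlation of log2 CPM (read counts scaled to a common library size) between 1 µg/L libraries and 0.1 µg/L library 3 was 0.949 to 0.960, against 0.837 to 0.886 with library 1 and 0.895 to 0.933 with library 2. Genes are not independent replicates, and these values describe the libraries only.

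**Figure D1:**
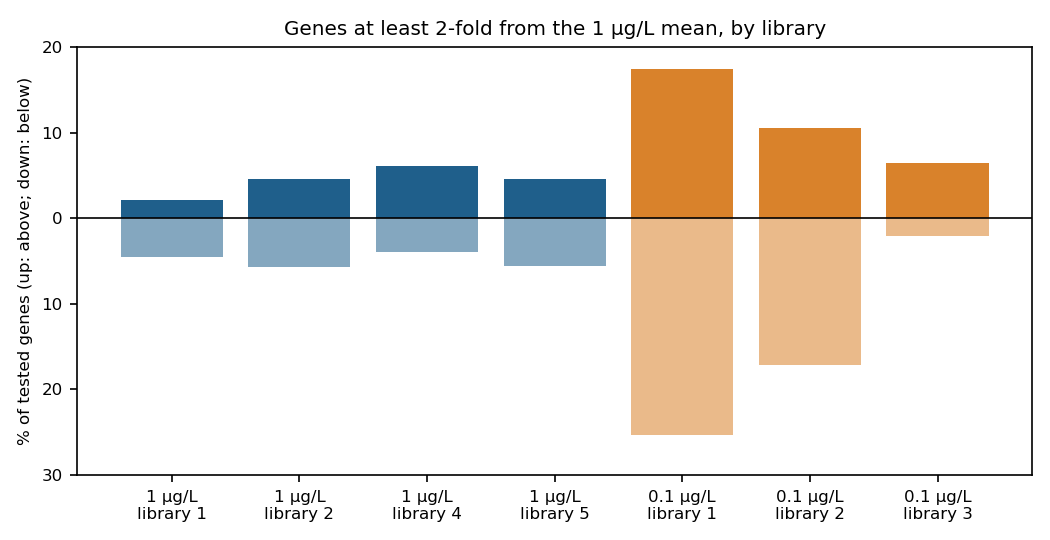
Share of the 19092 tested genes at least 2-fold above (up) or below (down) the mean log2 CPM of the 1 µg/L group, for each library. The 4 libraries at 1 µg/L, each set against the mean of the other 3, stay between 2.16% and 6.08%, while libraries 1 and 2 at 0.1 µg/L reach 25.3% and 17.2% below.

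Of 19092 genes tested, 37 were called between 1 and 0.1 µg/L (0.194% of genes tested) by edgeR's quasi-likelihood test at a Benjamini-Hochberg adjusted p below 0.05. Among these, 11 were higher at 1 µg/L (0.0576%) and 26 were lower (0.136%). The 11 included 3 of the 40 clock genes tested, and the 26 included 6 of 38 immediate early genes and 3 of 37 intestinal genes. In all 37, the 4 libraries at 1 µg/L and the 3 at 0.1 µg/L did not overlap in CPM, and over all genes 2247 (11.8%) had groups that did not overlap, 1217 higher (6.37%) and 1030 lower (5.39%). An unadjusted p below 0.05 was reached by 4256 genes (22.3%), 1894 of them higher (9.92%) and 2362 lower (12.4%). The number of calls moved with single libraries. Leaving out library 1, 2 or 3 at 0.1 µg/L gave 4, 9 and 6096 called genes, and leaving out library 1, 2, 4 or 5 at 1 µg/L gave 3, 2, 17 and 172. All 37 kept their direction in each of the 16 alternative settings, 2 of them (per2 and sec23b) kept their call whichever single library was left out, and 0 kept it without libraries 1 and 2 at 0.1 µg/L together. Because the groups do not overlap in any of the 37, leaving libraries out could hardly reverse a direction. The kept directions are therefore no separate support for the calls. The share of genes called depended on the tool as well: DESeq2 called 1439 of the 17014 genes it tested (8.46%), 2.63% higher and 5.82% lower, and limma-voom called 63 (0.33%), 0.0629% higher and 0.267% lower. Counts of list members called by these tools are to be read against those shares. Counts of list members at an unadjusted p below 0.05, or without overlap, are to be read against the shares of all genes given above.

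**Figure D2:**
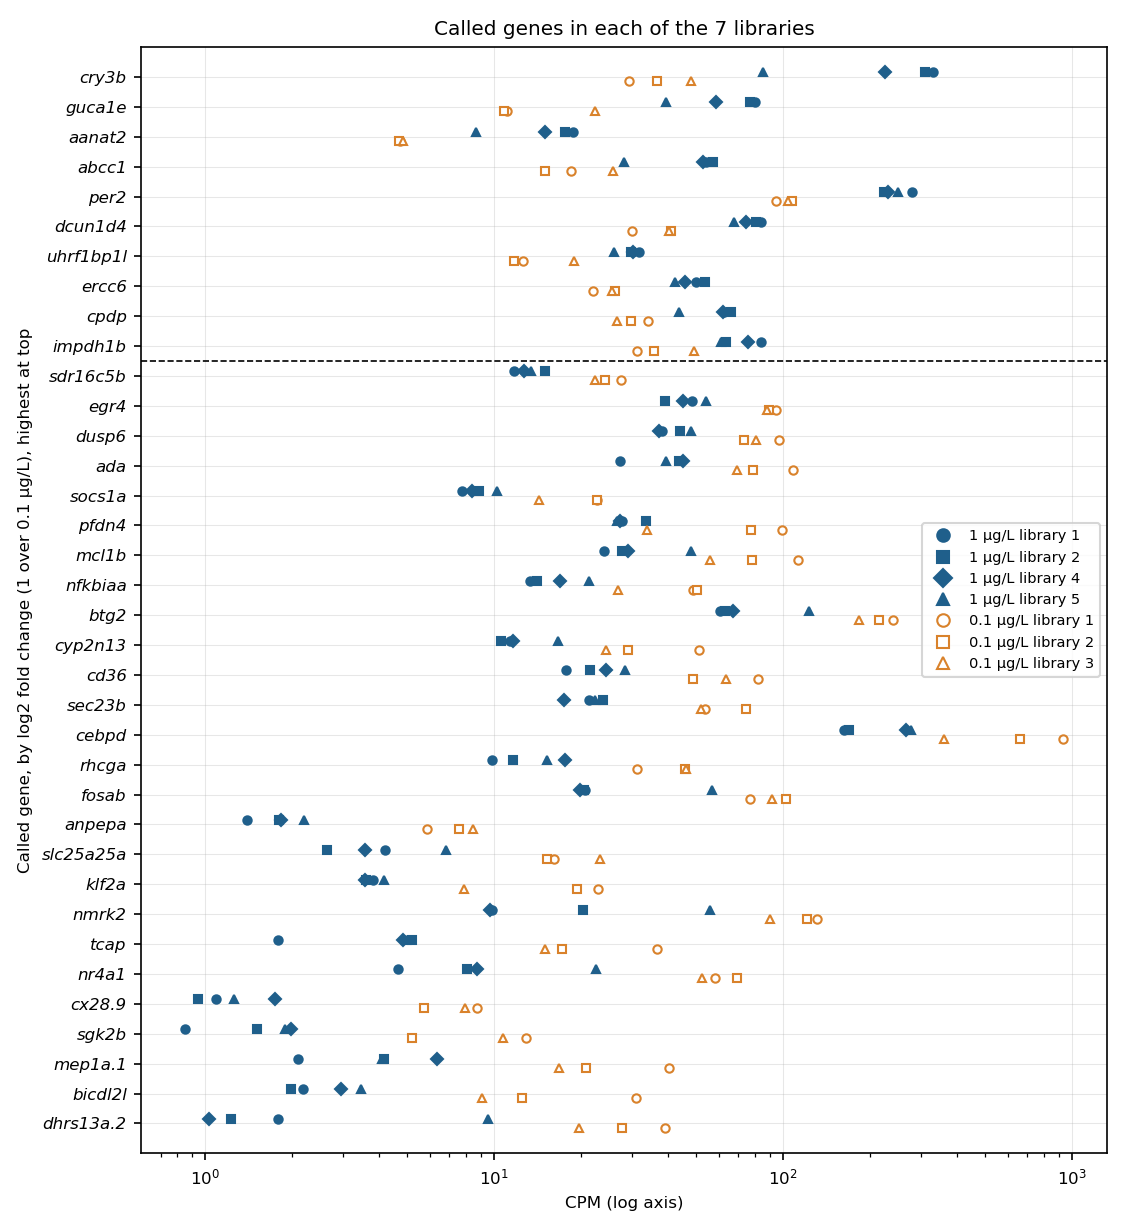
CPM on a log axis of 36 of the 37 called genes (znf1173, with a mean below 2 CPM, is not drawn) in the 4 libraries at 1 µg/L (filled) and the 3 at 0.1 µg/L (open), ordered by log2 fold change with the highest at the top. Genes above the dashed line were higher at 1 µg/L; in no gene drawn do the groups overlap, and library 5 is often the 1 µg/L library nearest to the 0.1 µg/L libraries.

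The lowest adjusted p among the genes of the circadian clock, and over all genes, was that of per2, a period gene whose transcription light induces in zebrafish. In the 1 µg/L libraries 1, 2, 4 and 5 per2 (chr2:48309600-48375342, GRCz11) stood at 279, 224, 232 and 251 CPM, against 94.6, 107 and 104 CPM in libraries 1, 2 and 3 at 0.1 µg/L. All 4 libraries at 1 µg/L were above all 3 at 0.1 µg/L, with little spread inside either group. The log2 fold change was 1.27 ± 0.14 (SE, edgeR adjusted p = 0.00162), and without libraries 1 and 2 at 0.1 µg/L it was 1.24. With the 7 compared libraries fitted alone, the edgeR adjusted p of per2 was 0.146. cry3b, a cryptochrome of the clock family (chr22:786556-809282), had 330, 309, 226 and 85.2 CPM at 1 µg/L, against 29.2, 36.5 and 48.0 CPM at 0.1 µg/L. Library 5 was the lowest of the 1 µg/L group, yet above every 0.1 µg/L library. The fold was 6.26, with a log2 fold change of 2.65 ± 0.42 (SE, adjusted p = 0.0157). aanat2, the enzyme of pineal melatonin synthesis in zebrafish, had 18.7, 17.6, 15.0 and 8.64 CPM at 1 µg/L, against 4.72, 4.67 and 4.82 CPM at 0.1 µg/L, and rose 3.15-fold (adjusted p = 0.0332). Without library 1 at 0.1 µg/L the adjusted p was 0.146 for cry3b and 0.190 for aanat2, and 0.0122 for per2.

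Other clock components gave values that did not pass the test, some in the same direction and some in the other. Of the 40 clock genes tested, edgeR called 3 higher and 0 lower. DESeq2 called 11 higher and 2 lower, and limma-voom 2 higher and 2 lower. The list's median log2 fold change was 0.37, beside 0.03 over all genes tested. At an unadjusted p below 0.05, 15 were higher and 2 lower. Against library 1, 2 and 3 at 0.1 µg/L in turn the list's median was 1.15, 0.60 and -0.19, so its sign depended on the library, and without libraries 1 and 2 it was -0.14. Examples among the clock genes that were not called follow. arntl1a, a Bmal1 gene, averaged 58.9 ± 15.5 CPM at 1 µg/L and 35.1 ± 3.85 CPM at 0.1 µg/L (SD, n = 4 and 3, edgeR adjusted p = 0.0891). arntl1b had 23.8, 16.4, 25.2 and 15.9 CPM at 1 µg/L, against 1.12, 3.84 and 10.8 CPM at 0.1 µg/L (adjusted p = 0.0749). The 0.1 µg/L libraries differed widely among themselves here, and its log2 fold change of 1.92 became 0.90 without libraries 1 and 2. fbxl3l, of the F-box family that marks cryptochromes for degradation, averaged 6.42 ± 3.18 CPM at 1 µg/L and 1.19 ± 0.388 CPM at 0.1 µg/L (SD, n = 4 and 3, edgeR adjusted p = 0.0714). cry5, a photolyase-family gene, had 25.6, 26.2, 24.6 and 18.0 CPM at 1 µg/L, against 11.4, 12.6 and 9.91 CPM at 0.1 µg/L (adjusted p = 0.0606). Its groups did not overlap, although the gene missed the threshold.

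The 4 libraries at 1 µg/L did not lie together in every clock gene, as they did in per2. nr1d1 (Rev-erb alpha), the repressor of Bmal transcription, had 24.3, 26.5 and 19 CPM in libraries 1, 2 and 4 at 1 µg/L and 617 CPM in library 5, against 546, 558 and 657 CPM at 0.1 µg/L. Library 5 thus stood within the range of the 0.1 µg/L libraries and the other 3 far below it. With all libraries the log2 fold change was -1.77 ± 0.85 (SE, adjusted p = 0.226), and without library 5 it was -4.66 (adjusted p = 1.15e-07). ciarta, a repressor of Clock and Bmal activity, had 27.4, 30.9, 32.0 and 276 CPM at 1 µg/L, against 178, 217 and 250 CPM at 0.1 µg/L. dbpb, a transcription factor of clock output, had 19.3, 19.2, 17.0 and 104 CPM at 1 µg/L, against 139, 110 and 93.0 CPM at 0.1 µg/L. bhlhe41, a transcriptional repressor of the clock, had 18.0, 20.5, 20.7 and 100 CPM at 1 µg/L, against 149, 126 and 110 CPM at 0.1 µg/L. In each of these genes library 5 was the one 1 µg/L library at or near the 0.1 µg/L level, and without it the adjusted p was 1.45e-06 for ciarta and 6.21e-06 for dbpb and for bhlhe41. With all libraries edgeR called none of ciarta, dbpb and bhlhe41. With another single library left out, their edgeR adjusted p reached 0.555, 0.485 and 0.422. ciarta and dbpb were picked out after their values were seen. Every library was left out in turn, but the fit without library 5 is given where that library was seen to stand apart. Adjusted p-values without library 5, here and for the genes below, show the weight of that library. They are not support for a difference between the doses. per1a, another period gene, had 4.42, 5.10, 3.90 and 91.7 CPM at 1 µg/L, against 15.9, 22.9 and 80.1 CPM at 0.1 µg/L (adjusted p = 0.701). For per1a both groups were split, with 1 high library in each, so its group means of 26.3 and 39.6 CPM describe no library. nr1d2a, a close relative of nr1d1, had 98.5, 74.2, 96.5 and 552 CPM at 1 µg/L, against 200, 315 and 519 CPM at 0.1 µg/L (adjusted p = 0.389). It too was picked out after its values were seen.

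**Figure D3:**
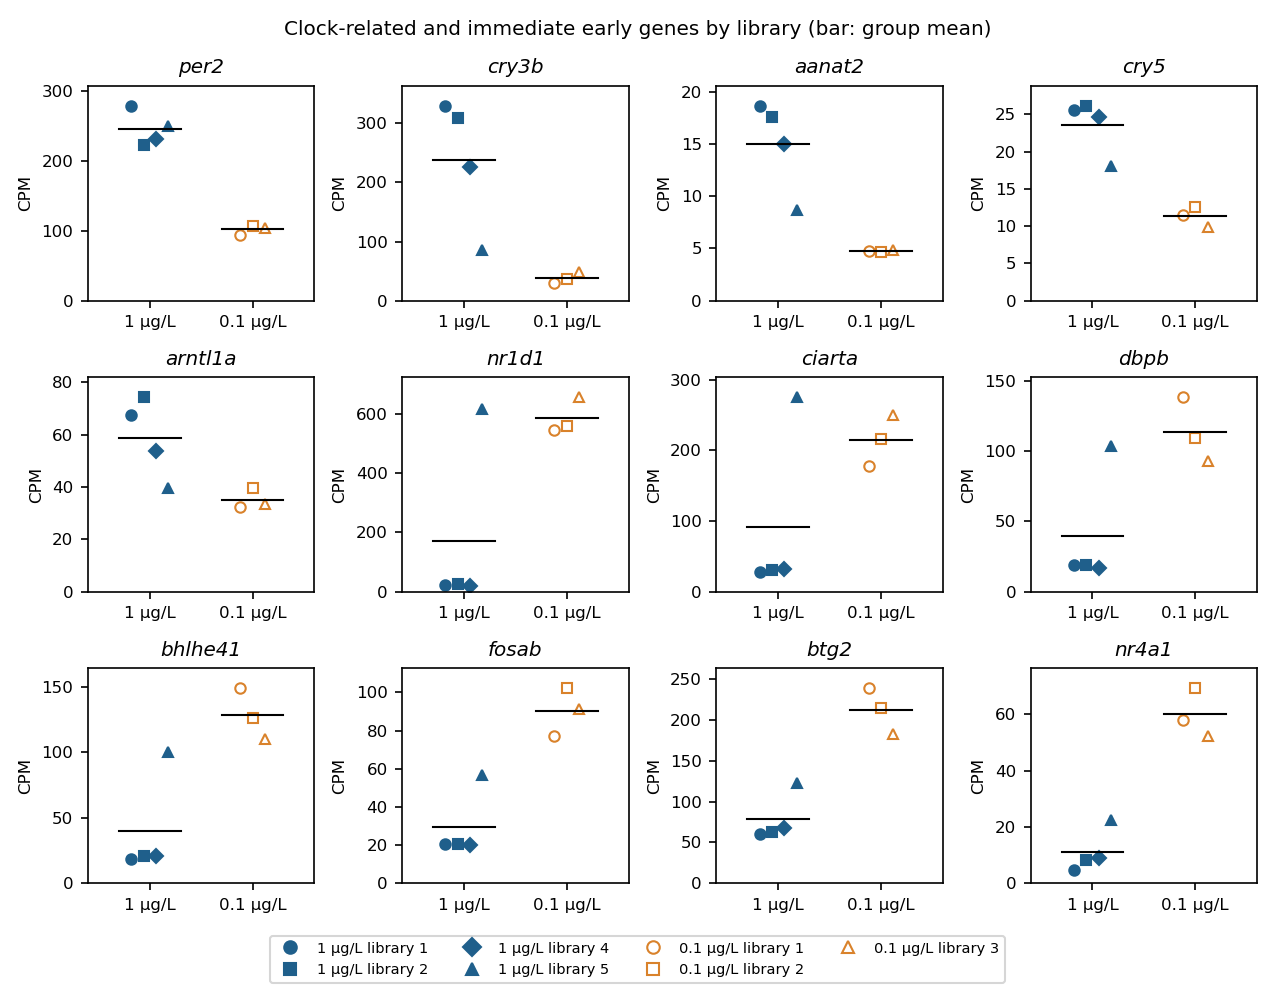
CPM of 12 clock-related and immediate early genes in each library at 1 µg/L (filled, left) and 0.1 µg/L (open, right), on linear axes from 0 with a bar at each group mean. per2, cry3b, aanat2, fosab, btg2 and nr4a1 separate the groups, while in nr1d1, ciarta and dbpb library 5 at 1 µg/L (filled triangle) lies among or close to the 0.1 µg/L libraries.

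A photolyase, a repair factor and a photoreceptor gene were also among those that rose. cpdp, the photolyase that repairs cyclobutane pyrimidine dimers with light, had 62.3, 65.8, 62.2 and 43.5 CPM at 1 µg/L, against 34.2, 29.7 and 26.5 CPM at 0.1 µg/L, and rose 1.94-fold (adjusted p = 0.0244). ercc6, which couples nucleotide excision repair to transcription, averaged 47.9 ± 5.02 CPM at 1 µg/L and 24.6 ± 2.25 CPM at 0.1 µg/L (SD, n = 4 and 3), and rose 1.95-fold (edgeR adjusted p = 0.0498). Both had every 1 µg/L library above every 0.1 µg/L library. The list of p53 targets and DNA repair, which holds neither gene, had a median log2 fold change of -0.09. At edgeR's unadjusted p below 0.05, 2 of its 21 members were higher and 5 lower, beside 9.92% and 12.4% of all genes. edgeR called 0 of them, limma-voom 0 and DESeq2 5. guca1e, a guanylate cyclase activator of photoreceptors, had 79.9, 76.8, 58.7 and 39.4 CPM at 1 µg/L, against 11.06, 10.79 and 22.31 CPM at 0.1 µg/L, and rose 4.30-fold (adjusted p = 0.0302). Its log2 fold change of 2.11 became 1.51 against library 3 alone. guca1e was the only called member of the 57 photoreceptor genes tested, whose median log2 fold change was 0.05. cnga3a, a subunit of the cone channel and of the same list, had 15.5, 15.4, 13.0 and 33.9 CPM at 1 µg/L, against 42.8, 28.9 and 53.3 CPM at 0.1 µg/L (adjusted p = 0.0971). impdh1b, an inosine monophosphate dehydrogenase of guanine nucleotide synthesis, averaged 70.9 ± 10.9 CPM at 1 µg/L and 38.8 ± 9.36 CPM at 0.1 µg/L (SD, n = 4 and 3), a rise of 1.83-fold (edgeR adjusted p = 0.0462). Its log2 fold change of 0.87 became 0.52 against library 3 alone. Without library 1 at 0.1 µg/L the adjusted p was 0.0813 for cpdp, 0.227 for ercc6, 0.190 for guca1e and 0.221 for impdh1b.

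The other genes that rose share no list. abcc1, an exporter of glutathione conjugates and drugs, had 54.0, 57, 52.96 and 28.1 CPM at 1 µg/L, against 18.4, 15.0 and 25.8 CPM at 0.1 µg/L (2.43-fold, adjusted p = 0.0362). The values of library 5 at 1 µg/L and of library 3 at 0.1 µg/L came close to each other, and against library 3 alone the log2 fold change was 0.89 in place of 1.28. dcun1d4, a factor that helps attach the ubiquitin-like protein Nedd8 to cullins, averaged 76.5 ± 7.32 CPM at 1 µg/L and 37.1 ± 6.16 CPM at 0.1 µg/L (SD, n = 4 and 3; edgeR adjusted p = 0.0130). uhrf1bp1l averaged 29.5 ± 2.42 CPM at 1 µg/L and 14.4 ± 3.95 CPM at 0.1 µg/L (SD, n = 4 and 3; edgeR adjusted p = 0.0302), and its log2 fold change of 1.03 became 0.63 against library 3 alone. znf1173, a zinc finger gene at a low level, had 1.63, 2.55, 1.67 and 1.57 CPM at 1 µg/L, against 0, 0.311 and 0.345 CPM at 0.1 µg/L (adjusted p = 0.0498). Without library 1 at 0.1 µg/L the adjusted p was 0.190 for abcc1, uhrf1bp1l and znf1173 and 0.0813 for dcun1d4.

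All immediate early genes called by edgeR were lower at 1 µg/L. Of 38 tested, edgeR called 6 lower and 0 higher, DESeq2 13 lower and 1 higher, and limma-voom 9 lower and 0 higher. The list's median log2 fold change was -0.54. At an unadjusted p below 0.05, 17 were lower and 3 higher. The median was nearly the same against each 0.1 µg/L library, at -0.51, -0.52 and -0.54 for libraries 1, 2 and 3, but not in each 1 µg/L library. Libraries 1, 2 and 4 at 1 µg/L had a list median of -0.76, -0.76 and -0.72 relative to the 0.1 µg/L mean, whereas library 5 had one of -0.01. nr4a1, an orphan nuclear receptor, had 4.65, 8.03, 8.75 and 22.5 CPM at 1 µg/L, against 58.1, 69.4 and 52.5 CPM at 0.1 µg/L. The log2 fold change was -2.45 ± 0.35 (SE, adjusted p = 0.0130), and against library 3 alone it was -2.27. fosab, which encodes c-Fos, had 20.6, 20.5, 19.8 and 56.6 CPM at 1 µg/L, against 77.1, 102 and 91.5 CPM at 0.1 µg/L (log2 fold change -1.62 ± 0.30, adjusted p = 0.0362). btg2, an antiproliferative gene, had 60.4, 62.7, 67.0 and 123 CPM at 1 µg/L, against 239, 215 and 183 CPM at 0.1 µg/L (-1.44 ± 0.22, adjusted p = 0.0130). In these genes library 5 was again the highest at 1 µg/L and still below all 0.1 µg/L libraries. dusp6, the phosphatase of Erk, averaged 41.8 ± 5.19 CPM at 1 µg/L and 83.4 ± 12.0 CPM at 0.1 µg/L (SD, n = 4 and 3; edgeR adjusted p = 0.0161). egr4, a zinc finger factor, averaged 46.7 ± 6.42 CPM at 1 µg/L and 90.5 ± 3.50 CPM at 0.1 µg/L (SD, n = 4 and 3; edgeR adjusted p = 0.0161). klf2a, a flow-responsive factor of endothelium, had 3.80, 3.59, 3.58 and 4.16 CPM at 1 µg/L, against 22.9, 19.4 and 7.84 CPM at 0.1 µg/L (adjusted p = 0.0130). The 1 µg/L libraries were tight and library 3 at 0.1 µg/L lay nearest to them, so its log2 fold change of -2.13 became -1.06 without libraries 1 and 2. klf2a was also the only called member of the 30 endothelial genes tested. Leaving out a single library took the adjusted p to 0.0714 for nr4a1 (library 2 at 1 µg/L), 0.174 for fosab and 0.105 for dusp6 (library 1 at 1 µg/L), 0.102 for egr4 (library 2 at 1 µg/L), and 0.0813 for btg2 and klf2a (library 1 at 0.1 µg/L).

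Several immediate early genes just missed the threshold while their groups did not overlap. junbb, a partner of c-Fos, had 46.4, 48.4, 47.3 and 79.4 CPM at 1 µg/L, against 130, 125 and 108 CPM at 0.1 µg/L (adjusted p = 0.0605). ier2a had 22.2, 25.6, 25.1 and 56.9 CPM at 1 µg/L, against 98.3, 73.9 and 68.5 CPM at 0.1 µg/L (adjusted p = 0.0607). ccn1, a secreted matrix protein, averaged 13.9 ± 2.99 CPM at 1 µg/L and 30.02 ± 1.45 CPM at 0.1 µg/L (SD, n = 4 and 3; edgeR adjusted p = 0.0605). dusp1, another phosphatase of mitogen-activated kinases, averaged 52.3 ± 7.02 CPM at 1 µg/L and 84.2 ± 3.77 CPM at 0.1 µg/L (SD, n = 4 and 3; edgeR adjusted p = 0.0607). Without library 5 at 1 µg/L the adjusted p was 0.00778 for junbb, 0.00108 for ier2a, 0.0193 for ccn1 and 0.0684 for dusp1. Summed over the list, immediate early transcripts held 1507.7 to 2270 CPM at 1 µg/L and 2287.3 to 2468.7 CPM at 0.1 µg/L, with library 5 the highest of the 1 µg/L group.

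Feedback inhibitors of inflammatory signalling were also among the genes that fell. nfkbiaa, which encodes the NF-kappaB inhibitor I-kappa-B alpha, had 13.3, 14.1, 16.9 and 21.2 CPM at 1 µg/L, against 48.9, 50.3 and 26.8 CPM at 0.1 µg/L (adjusted p = 0.0302). socs1a, a suppressor of cytokine signalling, averaged 8.80 ± 1.05 CPM at 1 µg/L and 19.9 ± 4.84 CPM at 0.1 µg/L (SD, n = 4 and 3; edgeR adjusted p = 0.0401). These were the 2 called of the 32 inflammation and interferon genes tested, both lower, and the list's median log2 fold change was -0.43. cebpd, an acute-phase transcription factor, had 162, 169, 267 and 278 CPM at 1 µg/L, against 931, 661 and 360 CPM at 0.1 µg/L (adjusted p = 0.0312). mcl1b, an inhibitor of apoptosis, averaged 32.2 ± 10.8 CPM at 1 µg/L and 82.3 ± 28.7 CPM at 0.1 µg/L (SD, n = 4 and 3; edgeR adjusted p = 0.0284). In these 4 genes library 3 was the lowest of the 0.1 µg/L group, and against it alone the log2 fold change was -0.72 for nfkbiaa, -0.71 for socs1a, -0.73 for cebpd and -0.80 for mcl1b, in place of -1.35, -1.17, -1.57 and -1.35. socs3a and nfkbiab were not called with all libraries (adjusted p = 0.0607 each). nfkbiab had 65.0, 66.7, 66.6 and 168 CPM at 1 µg/L, against 276, 241 and 156 CPM at 0.1 µg/L, so library 5 lay above the lowest 0.1 µg/L library, and without it the adjusted p was 1.87e-04. Without library 1 at 0.1 µg/L the adjusted p was 0.178 for nfkbiaa and mcl1b and 0.190 for socs1a and cebpd.

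The intestinal list had the most called members after the immediate early list and the same number as the clock list. Of 37 intestinal genes tested, 3 were called lower and 0 higher; 24 were lower at an unadjusted p below 0.05 and 0 higher. The list's median log2 fold change was -1.40, and against libraries 1, 2 and 3 at 0.1 µg/L it was -1.95, -1.31 and -1.76. anpepa, a brush border aminopeptidase (chr18:21077528-21097663), had 1.4, 1.79, 1.83 and 2.2 CPM at 1 µg/L, against 5.84, 7.57 and 8.44 CPM at 0.1 µg/L (adjusted p = 0.0130). mep1a.1, the alpha subunit of the brush border protease meprin, had 2.09, 4.16, 6.36 and 4.08 CPM at 1 µg/L, against 40.3, 20.8 and 16.8 CPM at 0.1 µg/L (adjusted p = 0.0302). ada, adenosine deaminase, had 27.21, 43.75, 45.0 and 39.3 CPM at 1 µg/L, against 108, 78.5 and 69.2 CPM at 0.1 µg/L (adjusted p = 0.0312). Every 1 µg/L library was below every 0.1 µg/L library in all 3 genes, and against library 3 alone the log2 fold change was -2.23, -2.02 and -0.85. anpepa and mep1a.1 have close paralogs with which reads could be shared. Leaving out a single library took the adjusted p to 0.0780 for anpepa (library 1 at 1 µg/L), 0.182 for mep1a.1 and 0.190 for ada (library 1 at 0.1 µg/L).

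Further enterocyte genes had groups that did not overlap and adjusted p-values above the threshold. anpepb had 11.0, 18.1, 35.1 and 17.9 CPM at 1 µg/L, against 88.3, 56.3 and 97.3 CPM at 0.1 µg/L (adjusted p = 0.0545). slc6a19b, a transporter of neutral amino acids, had 0.930, 2.74, 7.47 and 2.59 CPM at 1 µg/L, against 19.6, 10.4 and 21.0 CPM at 0.1 µg/L (adjusted p = 0.0607). In both genes it was library 3, not 1 or 2, that had the highest value at 0.1 µg/L. chia.2, a digestive chitinase, averaged 82.2 ± 38.7 CPM at 1 µg/L and 414 ± 105 CPM at 0.1 µg/L (SD, n = 4 and 3; edgeR adjusted p = 0.0607). Over the list, summed transcripts ran at 1131.8 to 2639.4 CPM at 1 µg/L and at 2722.5 to 6830.4 CPM at 0.1 µg/L. In library 3, 25 of the 37 genes were above the whole 1 µg/L range, compared with 30 in library 1 and 24 in library 2. The shares of all genes tested above that range were 19.8% in library 3, 33% in library 1 and 29.7% in library 2. No matched member was at 0 in every library of a group. The part of this marker sum in the called genes was not tested. The same sum was 888.76 to 2801.3 CPM in control libraries and 611.38 to 2763.2 CPM at 10 µg/L.

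Liver and plasma protein genes had lower values at 1 µg/L without a call. Of the 34 tested, edgeR and limma-voom called 0 and DESeq2 called 21, all lower (5.82% of all genes it tested were called lower). At edgeR's unadjusted p below 0.05, 30 were lower, beside 12.4% of all genes. The groups did not overlap in 24, all of these lower at 1 µg/L, beside 5.39% of all genes. The list's median log2 fold change was -1.64, and it was -1.96, -1.98 and -0.90 against libraries 1, 2 and 3 at 0.1 µg/L. ambp, precursor of alpha-1-microglobulin, had 12.7, 10.9, 16.8 and 9.43 CPM at 1 µg/L, against 63.8, 73.9 and 32.6 CPM at 0.1 µg/L (adjusted p = 0.0605). f2, prothrombin, had 6.75, 9.45, 10.18 and 9.19 CPM at 1 µg/L, against 47.7, 37.1 and 18.0 CPM at 0.1 µg/L (adjusted p = 0.0607). c9, of the complement attack complex, averaged 23.6 ± 3.13 CPM at 1 µg/L and 82.6 ± 28.9 CPM at 0.1 µg/L (SD, n = 4 and 3; edgeR adjusted p = 0.0703). In all 3 genes library 3 was the lowest of the 0.1 µg/L group and above the 1 µg/L range, and without libraries 1 and 2 the log2 fold change was -1.40 for ambp, -1.03 for f2 and -1.07 for c9, in place of -2.19, -1.94 and -1.80. Summed over the list, the 1 µg/L libraries held 1551.1 to 3271 CPM and the 0.1 µg/L libraries 3247.8 to 8714.8 CPM, so the highest of the 1 µg/L group met the lowest of the 0.1 µg/L group. In library 3, 25 of the 34 genes were above the 1 µg/L range, compared with 33 in library 1 and 34 in library 2. Over all genes tested, 19.8% were above that range in library 3, 33% in library 1 and 29.7% in library 2.

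Among 30 genes of lipid transport and storage, 1 was called lower and 0 higher, with a median log2 fold change of -1.43. Without overlap of the groups, 17 were lower, beside 5.39% of all genes. cd36, a scavenger receptor that takes up fatty acids, had 17.7, 21.5, 24.4 and 28.4 CPM at 1 µg/L, against 81.8, 48.9 and 63.7 CPM at 0.1 µg/L (log2 fold change -1.49 ± 0.27, adjusted p = 0.0312). It was nearly as large against library 3 alone (-1.48), and without library 1 at 0.1 µg/L the adjusted p was 0.190. apobb.1, the apolipoprotein B of lipoprotein particles, had 43.8, 109, 124 and 87.4 CPM at 1 µg/L, against 448, 294 and 291 CPM at 0.1 µg/L (adjusted p = 0.0832). apoea, an apolipoprotein E gene, had 18.9, 45.5, 55.3 and 31.7 CPM at 1 µg/L, against 303, 200 and 51.5 CPM at 0.1 µg/L (adjusted p = 0.0814). For apoea library 3 lay inside the 1 µg/L range, and the log2 fold change of -2.29 became -0.45 without libraries 1 and 2. Glucose production genes gave lower means too: pck1, the entry enzyme of gluconeogenesis, averaged 59.8 ± 25.3 CPM at 1 µg/L and 173 ± 35.5 CPM at 0.1 µg/L (SD, n = 4 and 3; edgeR adjusted p = 0.0804). The list of 36 glucose and glycogen genes had a median of -0.01, with 3 higher and 9 lower at an unadjusted p below 0.05 (edgeR and limma-voom called 0, DESeq2 called 2 higher and 4 lower).

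PPAR-alpha is the fatty acid receptor through which perfluorinated acids act in rodent liver. pparaa had 29.7, 23.3, 28.1 and 23.6 CPM at 1 µg/L, against 11.3, 12.3 and 19.8 CPM at 0.1 µg/L (adjusted p = 0.0832). pparab had 3.80, 2.74, 5.33 and 4.95 CPM at 1 µg/L, against 0.124, 0.104 and 5.77 CPM at 0.1 µg/L (adjusted p = 0.443). The near absence of pparab reads was thus in libraries 1 and 2, and library 3 exceeded every 1 µg/L library. cpt1aa, the carnitine palmitoyltransferase of mitochondrial import and a PPAR target in mammals, averaged 39.0 ± 3.33 CPM at 1 µg/L and 32.4 ± 4.18 CPM at 0.1 µg/L (SD, n = 4 and 3; edgeR adjusted p = 0.379). Of 47 genes of fatty acid oxidation and PPAR signalling, 3 were higher and 13 lower at edgeR's unadjusted p below 0.05. Over all genes these shares were 9.92% and 12.4%. The list's median was -0.11 (edgeR and limma-voom called 0, DESeq2 called 1 higher and 5 lower). In the 46 xenobiotic metabolism genes 1 was called, cyp2n13, a cytochrome P450, at 11.3, 10.6, 11.6 and 16.7 CPM at 1 µg/L, against 51.3, 29.1 and 24.5 CPM at 0.1 µg/L (adjusted p = 0.0401). Against library 3 alone its log2 fold change of -1.48 became -0.97, and without library 1 at 0.1 µg/L its adjusted p was 0.221. cyp1a, the target of the aryl hydrocarbon receptor, averaged 6.14 ± 0.796 CPM at 1 µg/L and 9.64 ± 1.82 CPM at 0.1 µg/L (SD, n = 4 and 3; edgeR adjusted p = 0.247). The antioxidant genes cat (catalase), sod1 (superoxide dismutase) and hmox1a (heme oxygenase) did not pass either, with an edgeR adjusted p of 0.234, 0.159 and 0.976. sod1 had 70.4, 79.7, 72.0 and 58.4 CPM at 1 µg/L, against 189, 102 and 57.5 CPM at 0.1 µg/L. Its direction hung on libraries 1 and 2, with a log2 fold change of -0.73 that became 0.28 without them. Of the 39 Nrf2 and oxidative stress genes tested, 17 were lower and 0 higher at edgeR's unadjusted p below 0.05. edgeR and limma-voom called 0 of them, and DESeq2 called 6, all lower. That list's median log2 fold change was -0.41, and it became 0.11 without libraries 1 and 2.

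Among the other genes that fell, sec23b, a coat protein of vesicles leaving the endoplasmic reticulum (chr6:6779114-6796687), had 21.2, 23.8, 17.4 and 22.3 CPM at 1 µg/L, against 53.7, 74.4 and 51.9 CPM at 0.1 µg/L. The log2 fold change was -1.5 ± 0.18 (SE, edgeR adjusted p = 0.0019), and leaving out any single library kept the adjusted p at or below 0.0191. With the 7 compared libraries fitted alone it was 0.146, and scaling by library size alone also ended the call. dhrs13a.2, a short-chain dehydrogenase gene, had 1.78, 1.23, 1.03 and 9.51 CPM at 1 µg/L, against 38.9, 27.7 and 19.6 CPM at 0.1 µg/L, a level 8.4-fold lower at 1 µg/L (adjusted p = 0.0462). bicdl2l, a cargo adaptor of the bicaudal D family, had 2.17, 1.98, 2.94 and 3.46 CPM at 1 µg/L, against 30.9, 12.4 and 9.04 CPM at 0.1 µg/L (adjusted p = 0.0130). Its log2 fold change of -2.72 became -1.78 against library 3 alone. sgk2b, a kinase of the serum- and glucocorticoid-regulated family, had 0.853, 1.51, 1.99 and 1.89 CPM at 1 µg/L, against 12.9, 5.19 and 10.8 CPM at 0.1 µg/L (adjusted p = 0.0161). cx28.9, a connexin of gap junctions, averaged 1.26 ± 0.351 CPM at 1 µg/L and 7.44 ± 1.55 CPM at 0.1 µg/L (SD, n = 4 and 3; edgeR adjusted p = 0.0302). slc25a25a, a mitochondrial carrier of ATP-Mg and phosphate, averaged 4.31 ± 1.80 CPM at 1 µg/L and 18.2 ± 4.33 CPM at 0.1 µg/L (SD, n = 4 and 3; edgeR adjusted p = 0.0302). Leaving out a single library took the adjusted p to 0.2 for dhrs13a.2 and 0.0813 for bicdl2l (library 1 at 0.1 µg/L), and to 0.0884 for sgk2b, 0.162 for cx28.9 and 0.154 for slc25a25a (library 1 at 1 µg/L).

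nmrk2, the muscle kinase of nicotinamide riboside, had 9.85, 20.3, 9.70 and 55.9 CPM at 1 µg/L. At 0.1 µg/L it had 131, 121 and 89.8 CPM (edgeR adjusted p = 0.0462). tcap, the sarcomere protein telethonin, had 1.78, 5.20, 4.85 and 4.95 CPM at 1 µg/L, against 36.7, 17.1 and 15.0 CPM at 0.1 µg/L (adjusted p = 0.0161). Both were lower in every 1 µg/L library, and without library 1 at 0.1 µg/L the adjusted p was 0.190 for nmrk2 and 0.118 for tcap. Against library 3 alone the log2 fold change of tcap was -1.85, in place of -2.45. The list of 52 skeletal muscle genes, of which edgeR called 0, holds neither gene. A further muscle list, myosin and muscle co-chaperones (24 genes), had 1 gene called lower and a median log2 fold change of -0.69. Against libraries 1, 2 and 3 at 0.1 µg/L that list's median was -1.12, -1.02 and -0.52. rhcga, an ammonia transporter of the Rh family, averaged 13.6 ± 3.52 CPM at 1 µg/L and 41.0 ± 8.43 CPM at 0.1 µg/L (SD, n = 4 and 3; edgeR adjusted p = 0.0435), and was the only called gene of 27 ionocyte genes. sdr16c5b, a retinol dehydrogenase family gene, averaged 13.2 ± 1.4 CPM at 1 µg/L and 24.6 ± 2.62 CPM at 0.1 µg/L (SD, n = 4 and 3; edgeR adjusted p = 0.0498). pfdn4, a subunit of the prefoldin chaperone, had 27.8, 33.5, 27.19 and 26.6 CPM at 1 µg/L, against 99.0, 77.7 and 33.8 CPM at 0.1 µg/L (adjusted p = 0.0462). In pfdn4 library 3 exceeded the highest 1 µg/L library only slightly, and the log2 fold change of -1.28 became -0.24 without libraries 1 and 2. Leaving out a single library took the adjusted p to 0.186 for rhcga (library 1 at 1 µg/L), and to 0.209 for sdr16c5b and 0.245 for pfdn4 (library 1 at 0.1 µg/L).

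**Figure D4:**
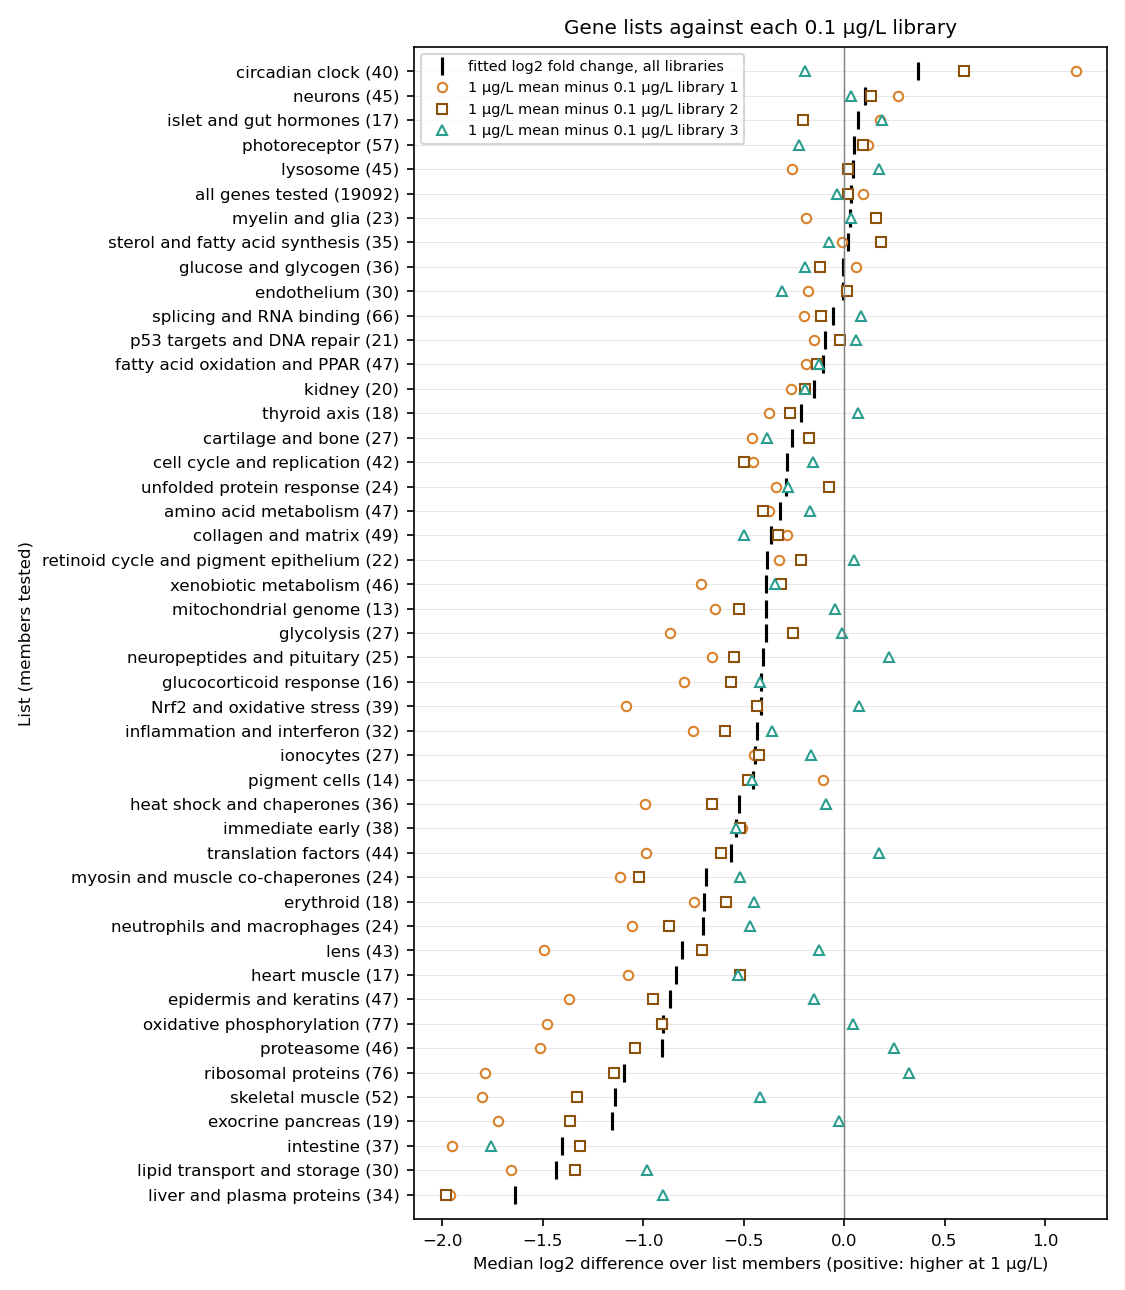
Median log2 difference over the tested members of each list with at least 10 of them (number in brackets), as fitted with all libraries (bar) and as the mean log2 CPM at 1 µg/L minus that of each 0.1 µg/L library (symbols); positive values are higher at 1 µg/L. Intestine, liver, lipid transport and immediate early lists lie below 0 against all 3 libraries. So do many others, among them heart and skeletal muscle, erythroid, neutrophils and macrophages, and collagen and matrix. Ribosomal proteins, proteasome and translation factors change sign against library 3.

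A second set of lists had strongly negative medians that moved towards 0, or past it, against library 3 at 0.1 µg/L. Of 76 ribosomal protein genes, 70 were lower at an unadjusted p below 0.05 (edgeR and limma-voom called 0, DESeq2 called 64, all lower, beside 5.82% lower over all genes), with a median log2 fold change of -1.10. The median was -1.79 and -1.15 against libraries 1 and 2, and 0.32 against library 3. In 73 of the 76 genes libraries 1 and 2 were above the 1 µg/L range and library 3 was not, and in 69 library 3 was below that range. Over all genes tested, libraries 1 and 2 were both above that range in 23%, and all of libraries 1, 2 and 3 in 5.39%. Library 3 was below it in 20% of all genes. rpl6 had 2645, 3064, 3208 and 2560 CPM at 1 µg/L, against 12260, 8001 and 2451 CPM at 0.1 µg/L (adjusted p = 0.0788). Here the spread within the 0.1 µg/L group was wider than the difference between the groups, and the log2 fold change of -1.40 became 0.22 without libraries 1 and 2. Summed ribosomal protein transcripts came to 105630 to 121710 CPM at 1 µg/L, against 396610, 259800 and 92007 CPM in libraries 1, 2 and 3 at 0.1 µg/L, and 86458 to 102560 CPM in control libraries. Scaled by TMM, CPM need not sum to the same total in each library, and without TMM the list's median was -0.53 where that of all genes was 0.39.

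Several other lists divided the 0.1 µg/L libraries likewise. Against libraries 1, 2 and 3 in turn, the median was -1.51, -1.04 and 0.25 for 46 proteasome genes, -1.48, -0.90 and 0.04 for 77 genes of oxidative phosphorylation, and -1.72, -1.36 and -0.02 for 19 genes of the exocrine pancreas. psma4, a core subunit of the proteasome, had 94.8, 118, 131 and 84.8 CPM at 1 µg/L, against 393, 319 and 84.9 CPM at 0.1 µg/L (adjusted p = 0.0822). ctrl, a pancreatic chymotrypsin-like protease, had 154, 152, 166 and 163 CPM at 1 µg/L, against 826, 502 and 140 CPM at 0.1 µg/L (adjusted p = 0.0955). Library 3 lay at or near the 1 µg/L range in both genes, and libraries 1 and 2 lay far above it. Without libraries 1 and 2 the log2 fold change was 0.33 for psma4 and 0.17 for ctrl, in place of -1.31 and -1.62. Lens (43 genes), epidermis and keratins (47 genes) and skeletal muscle (52 genes) had medians of -0.81, -0.87 and -1.14, which were -0.07, -0.07 and -0.24 without libraries 1 and 2. myhz2, a fast myosin heavy chain of skeletal muscle with near-identical paralogs, had 682, 1111, 880 and 684 CPM at 1 µg/L, against 3831, 2810 and 914 CPM at 0.1 µg/L (adjusted p = 0.0807), and its log2 fold change of -1.59 became -0.13 without libraries 1 and 2. Over all genes tested, libraries 1 and 2 were both above the 1 µg/L range in 4387 genes (23%), and library 3 was above it too in 1030 of those. Both were below it in 5468 genes (28.6%), with library 3 below it too in 1217.

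**Figure D5:**
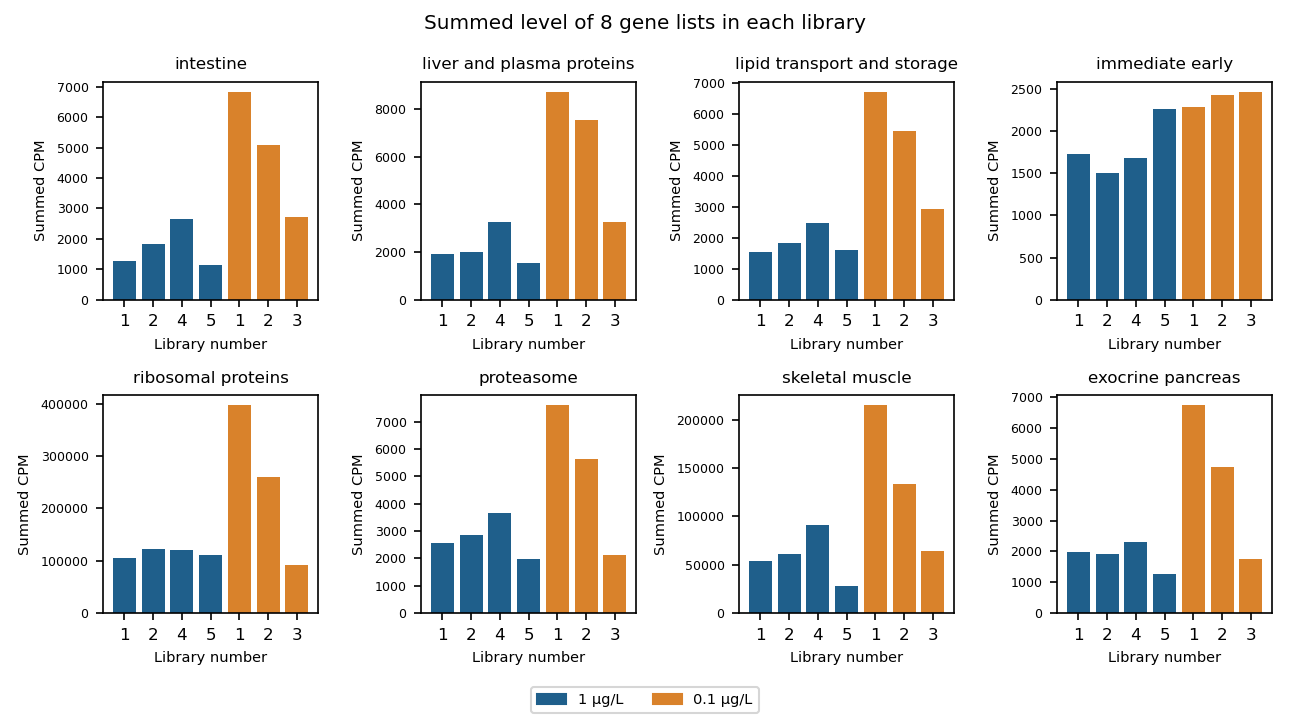
Summed CPM of the members of 8 lists in each library at 1 µg/L (blue, left) and 0.1 µg/L (orange, right), on linear axes from 0. In the intestine and lipid transport panels every 0.1 µg/L bar is above every 1 µg/L bar, while in the ribosomal protein panel library 3 at 0.1 µg/L (92007 CPM) is below all 4 libraries at 1 µg/L (105630 to 121710 CPM).

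Medians below 0 against all 3 libraries at 0.1 µg/L were not particular to the intestinal, liver, lipid transport and immediate early lists. Against libraries 1, 2 and 3 in turn the median was -1.07, -0.52 and -0.53 for heart muscle. For neutrophils and macrophages it was -1.06, -0.87 and -0.47. Several lists had medians closer to that of all genes (0.03), among them photoreceptor (0.05), lysosome (0.05), and sterol and fatty acid synthesis (0.02). The values of 3 more such lists follow. Neurons (45 genes) had a median log2 fold change of 0.10, myelin and glia (23 genes) 0.03 and kidney (20 genes) -0.15. edgeR and limma-voom called 0 genes in each, while DESeq2 called 5, 0 and 1, all lower, beside 5.82% lower over all genes. An edgeR unadjusted p below 0.05 was reached by 9, 3 and 5 members, beside 22.3% of all genes. The kidney median was also below 0 against libraries 1, 2 and 3 at 0.1 µg/L, at -0.27, -0.19 and -0.19. In a pair of stress lists edgeR also called 0 genes, but the medians lay below that of all genes. The 36 heat shock and chaperone genes had a median of -0.52. At edgeR's unadjusted p below 0.05, 12 were lower and 3 higher, beside 12.4% and 9.92% of all genes. edgeR and limma-voom called 0, and DESeq2 called 9 lower and 1 higher. Against libraries 1, 2 and 3 at 0.1 µg/L the list's median was -0.99, -0.66 and -0.09. Without libraries 1 and 2 it was -0.04. hsp90aa1.2, a cytosolic Hsp90 chaperone gene, had 78.3, 79.4, 70.5 and 132 CPM at 1 µg/L. At 0.1 µg/L it had 168, 169 and 132 CPM (edgeR adjusted p = 0.0789). Without library 5 at 1 µg/L its adjusted p was 0.00733. The 16 glucocorticoid response genes tested had a median of -0.41. edgeR and limma-voom called 0 of them and DESeq2 called 3, all lower, beside 5.82% lower over all genes. An edgeR unadjusted p below 0.05 was reached by 4 of the 16 glucocorticoid response genes, all lower, beside 12.4% lower over all genes. The summed level of the glucocorticoid list was 319.05, 283.56, 372.06 and 1044.4 CPM in libraries 1, 2, 4 and 5 at 1 µg/L, against 943.55, 729.32 and 982.49 CPM at 0.1 µg/L. Library 5 here exceeded all 0.1 µg/L libraries, as it did in the summed clock list, at 6432.7 CPM in library 5 and 3083.5 to 3596 CPM in the other 1 µg/L libraries, against 3983.2 to 5683.3 CPM at 0.1 µg/L.

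The levels at the other doses place these differences. Both comparisons of 10 and of 1 µg/L with 0.1 µg/L share the 0.1 µg/L libraries, so the values are given side by side only. per2 averaged 126 CPM in control, 102 at 0.1 µg/L, 246 at 1 µg/L and 169 at 10 µg/L. cry3b averaged 55.5, 37.9, 238 and 317 CPM across the same series from control to 10 µg/L. nr4a1 averaged 50.8, 60.0, 11.0 and 8.00 CPM across control, 0.1, 1 and 10 µg/L. sec23b averaged 54.8, 60.0, 21.2 and 32.1 CPM in that order of dose, and mep1a.1 averaged 9.27, 25.9, 4.17 and 3.06 CPM. In nr4a1 and sec23b the control and 0.1 µg/L means lay close together, and in mep1a.1 the 0.1 µg/L mean stood above all the others. For per2 the 10 µg/L mean was nearer to the control than to the 1 µg/L mean. Among all called genes, the control mean was nearer to the 0.1 µg/L than to the 1 µg/L mean in 7 of the 11 that rose and 17 of the 26 that fell, and nearer to the 1 µg/L mean in 4 and 9.

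Called genes differed in length and place. The 11 that rose had a median gene length of 4275 bases and the 26 that fell one of 1956.5 bases, beside 2455 bases over all genes tested. With the genes tested split by length into 3 sets of 6364, the shortest, middle and longest set had a median log2 fold change of -0.21, 0.04 and 0.17. The same medians were -0.33, 0.06 and 0.35 against library 1 at 0.1 µg/L, and -0.03, -0.03 and -0.04 against library 3, so the trend with length was in libraries 1 and 2. The part of gene length in the calls was not tested beyond the fit with the trend removed, which called 90 genes, among them 36 of the 37. Chromosome 20 held 6 of the 37 called genes (16.2%, with 4.21% of genes tested) and chromosome 22 held 5 (13.5%, with 3.5% of genes tested), among them btg2 (chr22:336256-339623), cry3b (chr22:786556-809282) and guca1e (chr22:1092479-1109547), a grouping noticed after the values were seen.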

How the data were processed

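The authors deposited 3 tables, 1 for each PFBA dose, that list each gene's raw read count in each library. Each table repeats the same control columns and gives gene lengths in bases. Per the labels' protocols, TRIzol was used to extract RNA, poly-A selection to enrich messenger RNA, and dUTP to make directional libraries. Per the submitters' processing notes, the tools were fastp, HISAT2, featureCounts and DESeq2 and the build was GRCz11, with no versions given. The sources used here do not state whether counting used strand or which annotation release, so overlapping genes and near-identical paralogs have less certain counts. The authors' deposited fold changes and p-values were not used.

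Joining on the gene identifier gave 26183 genes (24560 listed in every table), and 0 was entered for genes that a dose's table lacked (10528 values). Columns at 1 µg/L and in control carry numbers that differ from the sample titles, so libraries are named by column number. No pair of the 7 libraries was a duplicate (lowest chi-square per degree of freedom 17.1).

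Genes passing filterByExpr (19092) were scaled by TMM and tested in edgeR 4.0.16 (R 4.3.3) with a robust quasi-likelihood fit of all 16 libraries (12 residual degrees of freedom), as the contrast of 1 minus 0.1 µg/L. A gene was called at a Benjamini-Hochberg adjusted p below 0.05 over all genes tested. Levels are TMM-scaled CPM. A prior count of 2 entered log2 CPM. The F statistic gave the SE of each log2 fold change. Alternatives were DESeq2 1.42.0, limma-voom (limma 3.58.1), other scalings, no filter, the 7 libraries alone, a length trend removed, a replicate block and libraries left out. Without libraries 1 and 2 at 0.1 µg/L, the lone library 3 is assumed to vary like the other groups.

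Members and lists were chosen with earlier results of these data known. The 47 gene lists hold 1826 symbols, 1696 of them matched to a gene in the tables, and are described by counts and medians, with no set test. Among called genes with a mean of at least 2 CPM and no placeholder name, the rule named the 10 largest rises and falls, the 10 lowest p with non-overlapping groups in each direction, up to 4 called members of each list with at least 3 called, and a fixed set of genes. The remaining called genes are given for completeness. Uncalled list members were taken by lowest p within a list. Sequences were not used here.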

Additional observations from a re-analysis of the deposited data

Results flagged for a closer look

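In 110 results tested for a library standing apart within the 4 libraries at 1 µg/L, 21 were flagged because the gap from the highest or lowest library to its nearest neighbour was above Dixon's 95% critical share of the whole range. Chance flags about 1 in 20 groups, and all 21 rest on the same 4 libraries. Most genes tested here were taken for a low p in these data, and ciarta, dbpb and nr1d2a after their values were seen. The number of flags can therefore not be weighed against that chance rate. Library 5 was the one apart in 18 of the 21, library 2 in 2 and library 1 in 1.

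Library 5 lay far above the other 3 libraries in the following clock-related genes. It had 617.4 CPM of nr1d1 (others 19 to 26.46), 91.69 CPM of per1a (others 3.896 to 5.102) and 276.1 CPM of ciarta (others 27.45 to 31.97). It had 103.6 CPM of dbpb (others 17.02 to 19.31), 552.3 CPM of nr1d2a (others 74.17 to 98.47) and 100.1 CPM of bhlhe41 (others 17.99 to 20.67). The 0.1 µg/L libraries had 546 to 657 CPM of nr1d1, 178 to 250 CPM of ciarta, 93.0 to 139 CPM of dbpb and 110 to 149 CPM of bhlhe41.

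Library 5 was also the highest for immediate early and signalling genes. It had 56.57 CPM of fosab (others 19.8 to 20.62), 123 CPM of btg2 (others 60.4 to 67.03), 79.43 CPM of junbb (others 46.37 to 48.38) and 56.88 CPM of ier2a (others 22.17 to 25.61). It had 18.38 CPM of ccn1 (others 12.17 to 13.04), 168.4 CPM of nfkbiab (others 64.97 to 66.71) and 132.4 CPM of hsp90aa1.2 (others 70.53 to 79.37). The remaining highs were 9.507 CPM of dhrs13a.2 (others 1.034 to 1.783), 16.66 CPM of cyp2n13 (others 10.58 to 11.61) and 33.86 CPM of cnga3a (others 13.04 to 15.51).

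In 2 genes called higher at 1 µg/L, library 5 was instead the lowest, with 28.13 CPM of abcc1 (others 52.96 to 56.98) and 43.45 CPM of cpdp (others 62.18 to 65.76). Library 2 was the highest at 2.551 CPM of znf1173 (others 1.571 to 1.67) and 33.35 CPM of fabp11a (others 25.22 to 26.44). Library 1 was the lowest at 1.783 CPM of tcap (others 4.85 to 5.197). The 0.1 µg/L group, with 3 libraries, was not tested in this way.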

How the results depend on the processing

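The count of calls depended on the setting. Against 37 calls (11 higher, 26 lower), DESeq2 size factors in edgeR gave 86 (20 higher, 66 lower), library size alone 2 (2 higher, 0 lower), DESeq2 1439 (448 higher, 991 lower), limma-voom 63 (51 lower) and removal of a length trend 90 (19 higher, 71 lower). The 7 libraries fitted alone gave 0 (0 higher, 0 lower; 2622 genes at an unadjusted p below 0.05), and the fit without libraries 1 and 2 at 0.1 µg/L gave 0 (0 higher, 0 lower; 788 at an unadjusted p below 0.05), the lone library leaving no spread of its own. Leaving out 1 library at a time gave 2 to 6096 calls, 1 to 3662 higher and 1 to 2434 lower. The highest came without library 3 at 0.1 µg/L, where 60.1% of calls were higher, against 29.7% with all libraries and 100% with library size alone. The lowest came without library 2 at 1 µg/L. With no filter there were 39 calls, 31 of them shared. The median log2 fold change of all genes was 0.39 with library size alone and 0.03 with TMM. None of the 37 called genes reversed in any alternative, but their groups do not overlap, so leaving libraries out could hardly reverse them. Of the 47 list medians only 16 kept their sign in all alternatives, among them those of the intestine (-1.80 to -1.04), liver (-1.93 to -0.90), lipid transport (-1.58 to -0.86) and immediate early (-0.79 to -0.14) lists. The other medians changed sign in at least 1 alternative. For several lists the only such alternative was library size alone, under which all genes had a median of 0.39. These were xenobiotic metabolism, collagen and matrix, unfolded protein response, mitochondrial genome, and fatty acid oxidation and PPAR. Cell cycle and replication, inflammation and interferon, cartilage and bone, kidney, and amino acid metabolism were the others. With library size alone, xenobiotic metabolism and collagen and matrix had medians of 0.05 and 0.02. Relative to the median of all genes there, the lists just named ran from -0.37 (collagen and matrix) to -0.13 (fatty acid oxidation and PPAR). The cause of the sign changes was not tested.

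With the column number as a replicate block the count was 18 (3 higher, 15 lower), 14 of them shared with the unblocked fit. Only numbers 1 and 2 occur in both groups, and the correlation of their deviations from the group means was -0.231 and 0.204. Pairs with unlike numbers ran from -0.378 to 0.287. These values cannot show whether libraries of the same number share more than the number. With 3 and 4 libraries a gene's call depends on the spread borrowed from the other groups.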

Other observations

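In further genes without a call, library 5 was the 1 µg/L library nearest to the 0.1 µg/L libraries. socs3a, a suppressor of cytokine signalling, had 12.3, 9.64, 19.3 and 34.5 CPM in libraries 1, 2, 4 and 5 at 1 µg/L, against 46.2, 53.1 and 49.4 CPM at 0.1 µg/L, and without library 5 its edgeR adjusted p was 6.22e-04. sgk1, a glucocorticoid-induced kinase, had 46.4, 39.7, 47.4 and 66.3 CPM at 1 µg/L, against 71.0, 68.7 and 62.9 CPM at 0.1 µg/L. Library 5 thus lay within the 0.1 µg/L range of sgk1, and without library 5 the edgeR adjusted p of sgk1 was 0.0742.

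Of the 46 xenobiotic metabolism genes tested, 12 were lower and 1 higher at 1 µg/L without overlap of the groups. Over all genes these shares were 5.39% lower and 6.37% higher. cyp2ad2, a cytochrome P450 of this list, averaged 10.6 ± 1.6 CPM at 1 µg/L and 24.6 ± 5.09 CPM at 0.1 µg/L (SD, n = 4 and 3; edgeR adjusted p = 0.0607). ugt1a1, which conjugates bilirubin and drugs to glucuronic acid, had 7.06, 9.35, 11.0 and 11.0 CPM at 1 µg/L, against 34.6, 24.1 and 18.8 CPM at 0.1 µg/L (adjusted p = 0.0749). acaa1, a peroxisomal thiolase and a PPAR target in mammals, had 8.30, 8.88, 8.83 and 8.64 CPM at 1 µg/L, against 14.9, 18.1 and 14.5 CPM at 0.1 µg/L (adjusted p = 0.0785). Its 4 libraries at 1 µg/L were nearly equal, and every 0.1 µg/L library was above them.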
